A study of Homo sapiens with 4 samples.

Results

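The interferon-stimulated and nucleic acid sensing genes were examined in K562 cells expressing RUNX1::ERG. The set held 46 genes of 25702 listed, named by symbol and found through the NCBI number in each count file, and all 46 were present. K562 is a line of human chronic myeloid leukemia cells in blast crisis, long kept in culture. Cells in the control group were transfected with the empty LeGO-iG2 plasmid, and cells in the other group with LeGO-iG2 carrying RUNX1::ERG, a fusion that joins the Runt and Ets DNA-binding domains. Both groups thus received plasmid DNA and the green fluorescent protein that this vector co-expresses, and no untransfected cells were analysed here, so a response common to both transfections cannot be seen in this comparison. RNA was enriched for poly(A) and sequenced (whole transcriptome sequencing, WTS) from 2 biological replicates of each group. The methods do not state that transfected cells were sorted before RNA extraction. In bulk RNA of this kind, fewer cells with a transcript and less of the transcript per cell cannot be told apart.

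Type I interferons are secreted when cells detect foreign nucleic acid. Cytosolic RNA is sensed by RIG-I (RIGI) and MDA5 (IFIH1) and cytosolic DNA by cGAS (CGAS), whose product activates STING (STING1). The interferon receptor then acts through JAK kinases on a complex with STAT2 and IRF9, which binds the interferon-stimulated response element (ISRE) in the promoters of many antiviral genes. K562 cells are known to lack the region of chromosome 9p21 that holds CDKN2A and the type I interferon genes.

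Library totals ran from 59695387 to 82352144 counts, so that 3 counts, the limit that a count of 0 allows, correspond to 0.0364 to 0.0503 CPM (counts brought to a common library size). Of the counts from 1 to 10, 66.7% to 68.9% were even in each library, which is the pattern seen when each mate of a pair adds a count, so these limits cover counting error of independent reads only. The ERG gene itself followed the labels, with 80443 counts in RUNX1::ERG replicate 1, 27218 in replicate 2 and 4 in either control library. Levels are given below as normalized CPM, which are CPM scaled by the TMM method. The globin genes HBG1, HBG2, HBE1 and HBZ and the erythroid factors GATA1 and KLF1, which mark K562 cells, each had at least 11249 counts in every library.

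The promoters of these genes are described first, though they were read with the calls known. The ISRE is the element through which interferon is known to act on such genes. RefSeq promoter windows (GRCh38.p14) were matched for 34 of the 46 genes, with 45 windows in all. The ISRE core was searched as GAAA, any 2 bases and GAAA again, on both strands of the 250 bases before the transcription start. It was found in 24 of the 45 windows (53.3%), against 3.02% of all 35116 promoter windows, and these windows belonged to 21 genes. The letters TTCNNNGAA of the interferon-gamma activated site were in 11 of the 45 windows (24.4%), against 6.57% of all. The RUNX letters TGTGGT, again on both strands, were in 6 windows (13.3%, against 11% of all), and the ETS letters CCGGAAGT were in 0 windows (3.42% of all). Matches of different motifs can overlap, and a match describes the letters only. Of 6 genes that were higher with RUNX1::ERG, the 4 with a matched window all held the ISRE core. It was also held by 13 of 24 genes that were tested and not called, and by 4 of 6 that were too low to test. The windows below show the core in capitals, in 4 genes that were higher with RUNX1::ERG (IFITM3, IFI6, RSAD2 and ISG20), in 2 abundant genes that were not (IFITM1 and BST2) and in 1 that was near 0 in all libraries (IFI44L).
IFITM3: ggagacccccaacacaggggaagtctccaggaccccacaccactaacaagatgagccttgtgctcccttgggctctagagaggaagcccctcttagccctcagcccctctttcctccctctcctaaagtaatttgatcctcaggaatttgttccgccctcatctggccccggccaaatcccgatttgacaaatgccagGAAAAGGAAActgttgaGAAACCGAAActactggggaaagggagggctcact
IFI6: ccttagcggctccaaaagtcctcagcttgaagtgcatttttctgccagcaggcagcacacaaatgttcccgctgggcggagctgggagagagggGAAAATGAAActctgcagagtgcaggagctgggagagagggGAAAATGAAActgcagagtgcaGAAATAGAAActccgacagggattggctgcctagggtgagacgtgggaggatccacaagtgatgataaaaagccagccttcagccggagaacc
RSAD2: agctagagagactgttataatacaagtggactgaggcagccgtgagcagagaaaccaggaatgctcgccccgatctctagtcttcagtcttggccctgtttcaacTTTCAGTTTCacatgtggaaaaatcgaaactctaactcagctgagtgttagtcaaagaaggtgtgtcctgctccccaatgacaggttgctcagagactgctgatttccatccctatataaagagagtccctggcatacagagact
ISG20: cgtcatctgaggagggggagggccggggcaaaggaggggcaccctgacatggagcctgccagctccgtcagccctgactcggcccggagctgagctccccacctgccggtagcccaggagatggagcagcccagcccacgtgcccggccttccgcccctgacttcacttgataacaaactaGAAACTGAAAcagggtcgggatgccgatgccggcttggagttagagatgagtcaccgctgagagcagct
IFITM1: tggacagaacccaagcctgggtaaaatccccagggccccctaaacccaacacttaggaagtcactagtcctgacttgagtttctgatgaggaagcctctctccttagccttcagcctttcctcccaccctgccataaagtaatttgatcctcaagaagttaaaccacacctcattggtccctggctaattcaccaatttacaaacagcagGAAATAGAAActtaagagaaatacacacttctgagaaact
BST2: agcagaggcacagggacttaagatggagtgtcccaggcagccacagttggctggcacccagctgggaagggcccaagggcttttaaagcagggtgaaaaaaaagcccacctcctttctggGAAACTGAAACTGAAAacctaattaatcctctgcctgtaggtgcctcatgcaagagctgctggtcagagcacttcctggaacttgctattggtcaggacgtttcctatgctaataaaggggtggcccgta
IFI44L: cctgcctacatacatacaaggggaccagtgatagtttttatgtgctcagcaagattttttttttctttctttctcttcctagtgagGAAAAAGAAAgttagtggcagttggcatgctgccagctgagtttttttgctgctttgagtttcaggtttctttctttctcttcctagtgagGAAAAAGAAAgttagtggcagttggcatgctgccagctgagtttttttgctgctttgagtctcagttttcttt
Each line runs 5′ to 3′ toward the transcription start. The windows lie at chr11:320861-321110 (minus strand) for IFITM3, chr1:27672193-27672442 (minus strand) for IFI6, chr2:6877527-6877776 (plus strand) for RSAD2, chr15:88638766-88639015 (plus strand) for ISG20, chr11:313790-314039 (plus strand) for IFITM1, chr19:17405631-17405880 (minus strand) for BST2 and chr1:78620198-78620447 (plus strand) for IFI44L, all on GRCh38.p14. IFI6 held 3 matches, IFITM3, BST2 and IFI44L 2 each, and the other genes 1 each. The same core thus stood upstream of genes that rose, genes that did not and a gene whose RNA was barely detected.

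The question was which of these genes differed between RUNX1::ERG and the empty vector. Of the 46 genes, 37 passed the filter on low counts and 9 did not. IFITM2, IFITM3, IFI6, RSAD2, ISG20 and TRIM22 were higher with RUNX1::ERG past the adjusted threshold of 0.05 in the edgeR fit, with fold changes from 2.27 for IFITM3 to 5.57 for TRIM22. These 6 make up 16.2% of the 37 tested, against 3.64% called higher among all 15394 genes tested. None was called lower by edgeR, against 1.15% of all genes, and 4.79% of all genes were called in either direction. Before adjustment, 10 were higher at a p under 0.05 (27.0%, against 10.7% of all) and 4 lower (10.8%, against 7.26%). The DESeq2 Wald test called 7 higher and 1 lower, and limma voom 4 higher and 0 lower. The fitted log2 fold change was above 0 in 30 of the 37 (81.1%, against 49.8% of all genes), and the median was 0.44 against 0.00 over all genes. Both RUNX1::ERG libraries lay above both empty vector libraries in 20 genes (54.1%, against 25.1% of all) and below them in 6 (16.2%, against 22.1%). As a high level in 1 group is enough to pass the filter, these shares describe the tested genes and not the set of 46. Among the 37, 29 had at least 10 counts in both empty vector libraries. The rest were HERC6, CGAS, SAMD9L, IFIT1, IFIT2, IFIT5, EPSTI1 and the called gene TRIM22. All of these had a fitted log2 fold change above 0, and HERC6, CGAS and SAMD9L had under 10 counts in both empty vector libraries.

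**Figure D1:**
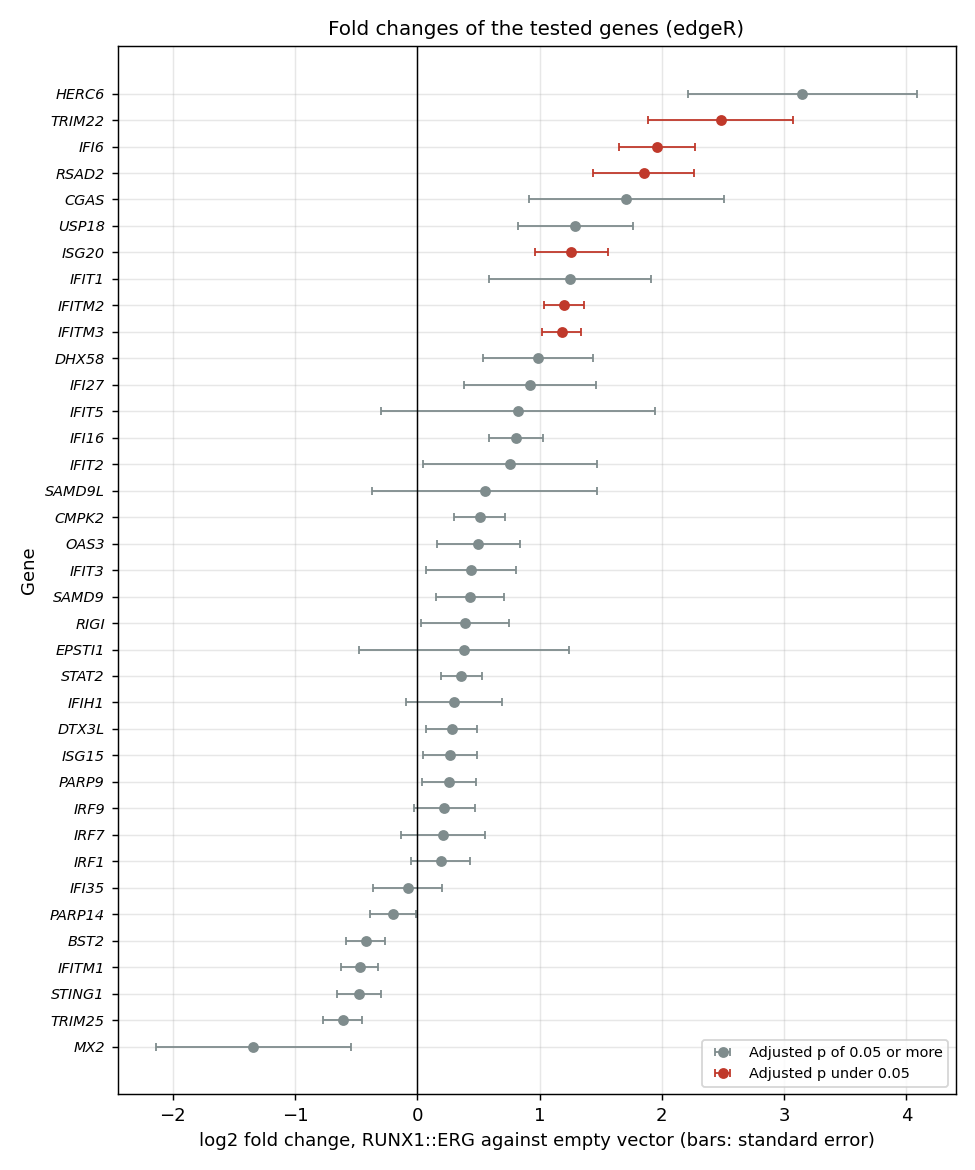
Log2 fold changes of RUNX1::ERG against empty vector (horizontal axis) for the 37 tested genes, with bars of 1 standard error from edgeR and genes past an adjusted p of 0.05 in red. The 6 red points lie between 1.18 and 2.48, while the lowest points, MX2, TRIM25, STING1, IFITM1 and BST2, lie between -1.34 and -0.42 and are not past the threshold.

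The summed level of the 46 genes was nearly flat, at 1036 and 1011 normalized CPM in the empty vector libraries and 1074 and 1022 in the RUNX1::ERG libraries. What differed was the makeup of this sum, which a few abundant genes dominate, and this difference was not tested. IFITM1 and BST2 supplied 50.9% and 54.1% of the sum with the empty vector, and 37.6% and 37.3% with RUNX1::ERG. Per kilobase of exon, the most abundant genes in the empty vector group were IFITM1 at 209.6 and BST2 at 171 CPM per kb, then IFITM3 at 35.5, IFITM2 at 19.9, ISG15 at 15 and STING1 at 12.6. With RUNX1::ERG, IFITM1 and BST2 were at 151 and 128 CPM per kb, IFITM3 at 80.6 and IFITM2 at 45.8.

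**Figure D2:**
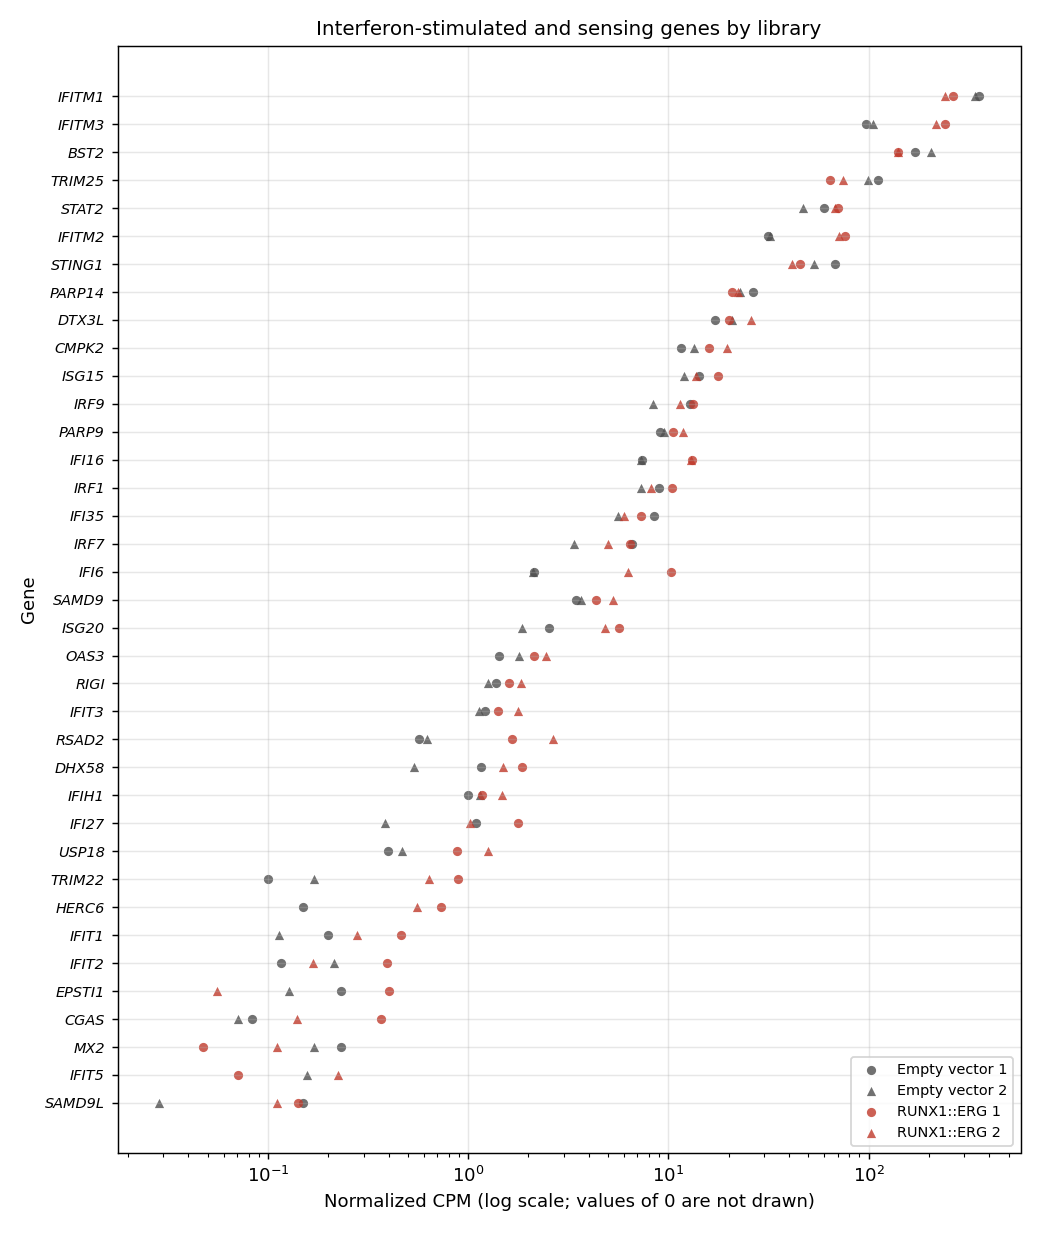
Normalized CPM on a log scale (horizontal axis) of the 37 tested genes in each library, with grey for the empty vector, red for RUNX1::ERG, circles for replicate 1 and triangles for replicate 2. The genes span from under 0.1 to 358 normalized CPM, and the red points of IFITM2, IFITM3, IFI6 and ISG20 stand clear to the right of the grey ones.

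The IFITM genes encode small membrane proteins that restrict the entry of enveloped viruses, and IFITM2, IFITM1 and IFITM3 lie side by side on chromosome 11 of GRCh37, from 303655 to 309397, 310041 to 315272 and 319676 to 329475. IFITM3 (NCBI gene 10410) was at 97.0 and 105 normalized CPM in empty vector replicates 1 and 2, and at 242 and 217 in RUNX1::ERG replicates 1 and 2. Its log2 fold change was 1.18 (standard error, SE, 0.16, edgeR adjusted p = 0.0017). IFITM2 (NCBI gene 10581) was at 31.6 and 32.2 with the empty vector and at 76.2 and 70.8 with RUNX1::ERG. The log2 fold change of 1.20 (SE 0.16, edgeR adjusted p = 0.0021) was close to that of IFITM3, and in both genes the groups stood far apart relative to the spread between replicates. IFITM1 (NCBI gene 8519), the most abundant of all 46 genes, went the other way, at 358 and 341 normalized CPM with the empty vector and 264 and 240.1 with RUNX1::ERG. Both RUNX1::ERG libraries were the lower ones, but the log2 fold change of -0.47 (SE 0.15, edgeR adjusted p = 0.1) did not pass the threshold.

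Within each library, the balance between the 3 neighbours was compared by the ratio of their counts. IFITM3 had 0.271 and 0.307 counts for each count of IFITM1 in the empty vector libraries, and 0.917 and 0.903 in the RUNX1::ERG libraries. The ratio of IFITM2 to IFITM1 was 0.0914 ± 0.0043 (SD, n = 2) with the empty vector and 0.292 ± 0.0043 (SD, n = 2) with RUNX1::ERG. By an exact two-sided permutation test, both ratios had p = 0.333, the smallest that 2 libraries against 2 can give. The ratio of IFITM2 to IFITM3 was 0.317 ± 0.0128 and 0.321 ± 0.00828 (SD, n = 2 each, exact permutation p = 0.667). The 3 genes are close paralogs. Of the distinct stretches of 100 bases in GENCODE v44 transcripts of IFITM3, 7.2% occur unchanged in IFITM1 and 1.9% in IFITM2. Reads from such stretches could have been counted on the wrong neighbour or left out. Their share of the reads was not measured. IFITM3 also shares 14.2% of its exon bases with an antisense RNA and IFITM1 21.1% with another gene on its own strand, and the strand setting of the counting is not given in the sources used here.

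IFI6 (NCBI gene 2537, chromosome 1 of GRCh37, 27992575 to 27998723) encodes a mitochondrial and endoplasmic reticulum protein with antiviral and antiapoptotic activity. It was at 2.14 and 2.11 normalized CPM with empty vector and at 10.3 and 6.29 with RUNX1::ERG, from counts of 129, 149, 866 and 452. The replicates of the empty vector were almost equal and both RUNX1::ERG libraries were well above them. The log2 fold change was 1.96 (SE 0.31, edgeR adjusted p = 0.0056). Without RUNX1::ERG replicate 1, the higher library, it was 1.56 and no longer passed the threshold (adjusted p = 0.065). IFI6 shares 23.1% of its exon bases with the noncoding RNA LINC02574 on the same strand.

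RSAD2 (NCBI gene 91543) encodes viperin, an enzyme that makes a chain-terminating nucleotide, and CMPK2, its divergent neighbour on chromosome 2, encodes a mitochondrial nucleotide kinase that supplies the substrate. RSAD2 had 34 and 44 counts in the empty vector libraries and 139 and 190 in the RUNX1::ERG libraries, or 0.565 and 0.624 against 1.65 and 2.64 normalized CPM. Its log2 fold change was 1.85 (SE 0.41, edgeR adjusted p = 0.031). It was the only 1 of the 6 raised genes with a higher level in RUNX1::ERG replicate 2 than in replicate 1. CMPK2 (NCBI gene 129607), more abundant, was at 11.6 and 13.4 normalized CPM with empty vector and at 15.9 and 19.7 with RUNX1::ERG. Its log2 fold change of 0.51 (SE 0.21) had an unadjusted p = 0.034 and an edgeR adjusted p = 0.23. The genes share 351 exon bases on opposite strands, which are 6.2% of RSAD2 and 8.0% of CMPK2. The call of RSAD2 was lost without RUNX1::ERG replicate 1 (log2 fold change 2.15, adjusted p = 0.057), without RUNX1::ERG replicate 2 (1.45, adjusted p = 0.23) and with limma voom (1.78, adjusted p = 0.053).

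ISG20 (NCBI gene 3669), an exonuclease that degrades single-stranded RNA, was at 2.54 and 1.86 normalized CPM with empty vector and at 5.68 and 4.81 with RUNX1::ERG. The groups did not overlap, and the log2 fold change was 1.26 (SE 0.30, edgeR adjusted p = 0.042). TRIM22 (NCBI gene 10346), a ubiquitin ligase with antiviral activity, had 6 and 12 counts with the empty vector and 75 and 46 with RUNX1::ERG. These are 0.0996 and 0.170 against 0.890 and 0.640 normalized CPM, a log2 fold change of 2.48 (SE 0.59, edgeR adjusted p = 0.041), and TRIM22 is thus a rare transcript in both groups. Both calls were close to the threshold. ISG20 lost it without RUNX1::ERG replicate 1 (adjusted p = 0.27), without RUNX1::ERG replicate 2 (0.052) and with scaling by library totals (0.056). TRIM22 lost it without RUNX1::ERG replicate 1 (0.31), without replicate 2 (0.058), without empty vector replicate 1 (0.051) and with limma voom (0.051).

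ISG15 is a ubiquitin-like modifier, which UBA7 activates, UBE2L6 carries and HERC5 attaches to proteins, while USP18 removes it and also restrains the interferon receptor. ISG15 itself was at 14.2 and 11.9 normalized CPM with the empty vector and 17.7 and 13.7 with RUNX1::ERG. The groups overlapped, and the log2 fold change was 0.27 (SE 0.22, edgeR adjusted p = 0.6). Of the enzymes that handle it, UBA7 was called. UBA7, from the list of pathway genes outside the 46, was at 2.59 and 1.56 normalized CPM with the empty vector and 9.67 and 6.44 with RUNX1::ERG, a log2 fold change of 1.96 (SE 0.34, edgeR adjusted p = 0.0088). Without RUNX1::ERG replicate 1 its adjusted p was 0.068. UBE2L6 was at 10.9 and 8.42 against 19.5 and 16.1 normalized CPM, and its log2 fold change of 0.89 (SE 0.22) had an adjusted p = 0.051, next to the threshold. Under the 12 other settings, UBE2L6 passed in 8, with log2 fold changes from 0.71 to 1.08. HERC5, the main ISG15 ligase in human cells, had 0 counts in 3 libraries and 4 counts in RUNX1::ERG replicate 1. HERC6, its relative, had 9 and 0 counts with the empty vector and 62 and 40 with RUNX1::ERG (log2 fold change 3.15, SE 0.94, edgeR adjusted p = 0.09). HERC6 passed under 4 of the 11 other settings that tested it, and with a library left out its log2 fold change ran from 2.10 to 8.61, the latter without empty vector replicate 1 (adjusted p = 2.8e-05), where the remaining control library is at 0 and the value is no bound. USP18 had 24 and 33 counts against 74 and 90 (log2 fold change 1.29, SE 0.47, adjusted p = 0.17), and did not overlap between groups. TRIM25 (NCBI gene 7706), a ubiquitin and ISG15 ligase that activates RIG-I, was lower, at 112 and 99.8 normalized CPM with the empty vector and 64.5 and 74.5 with RUNX1::ERG. Its log2 fold change of -0.61 (SE 0.16, edgeR adjusted p = 0.061) missed the threshold, which it passed under 4 of 12 other settings, including the DESeq2 Wald test (adjusted p = 0.014).

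The 3 cytosolic RNA sensors were rare and none was called. RIGI had 83 and 88 counts with the empty vector and 135 and 132 with RUNX1::ERG, IFIH1 60 and 81 against 99 and 106, and DHX58, which encodes the regulator LGP2, 70 and 38 against 157 and 108. After scaling, both RUNX1::ERG libraries lay above both empty vector libraries in all 3 (25.1% of all genes tested did so), with log2 fold changes of 0.39, 0.30 and 0.99 (edgeR adjusted p-values 0.65, 0.77 and 0.28). The margins for RIGI and IFIH1 were within about 1 SE (0.36 and 0.39). Of the exon bases of RIGI, 43.2% are shared with a second gene annotated on the same strand. With a library left out, the log2 fold change of DHX58 ran from 0.53 (without empty vector replicate 2) to 1.64 (without empty vector replicate 1).

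In DNA sensing, neither the sensor cGAS nor its effector STING was past the threshold. CGAS (NCBI gene 115004) had 5 counts in either control library, and 31 and 10 with RUNX1::ERG (log2 fold change 1.71, SE 0.80, edgeR adjusted p = 0.29), so the cells held little cGAS transcript in either group. CGAS passed the filter only through the RUNX1::ERG libraries. Without replicate 1 of that group its log2 fold change was 0.84. STING1 (NCBI gene 340061), by contrast, was abundant, at 67.6 and 53.4 normalized CPM with empty vector and at 45.2 and 41.6 with RUNX1::ERG. Its log2 fold change was -0.48 (SE 0.18, unadjusted p = 0.021, edgeR adjusted p = 0.18). IFI16, a nuclear DNA sensor of the PYHIN family, was at 7.42 and 7.33 against 13.1 and 12.9 normalized CPM, with replicates almost equal in each group. The log2 fold change of 0.81 (SE 0.22) had an edgeR adjusted p = 0.059 and passed under 3 of 12 other settings. AIM2, a related sensor from the pathway list, had 4 and 18 counts against 91 and 51 (log2 fold change 2.44, SE 0.65, adjusted p = 0.061). ZBP1, a sensor of Z-form nucleic acid, had 0 counts in every library. The 12 genes of nucleic acid clearance and tolerance included TREX1, SAMHD1, ADAR and the RNase H2 subunits. None passed the threshold in either direction by edgeR, against 4.79% of all genes tested. At an unadjusted p under 0.05, only AIM2 of the 12 passed. ADAR and BANF1 were the most abundant of them, with log2 fold changes of 0.15 (SE 0.17) and -0.19 (SE 0.15).

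The transcription factors of the pathway differed little. STAT2 was at 60.2 and 47.1 normalized CPM with empty vector and at 70.1 and 67.9 with RUNX1::ERG, a log2 fold change of 0.36 (SE 0.17, edgeR adjusted p = 0.31). The groups did not overlap. IRF9, which binds DNA in the STAT complex, was at 12.8 and 8.37 against 13.2 and 11.4 normalized CPM. IRF1, an early activator, was at 9.02 and 7.33 against 10.4 and 8.21. IRF7, which amplifies interferon transcription, was at 6.58 and 3.37 against 6.46 and 4.99. In these 3 the groups overlapped, and the log2 fold changes were 0.22, 0.19 and 0.21 with SEs of 0.25, 0.24 and 0.34. IRF1 shares 22.9% of its exon bases with the antisense RNA IRF1-AS1, and IRF9 23.9% with another gene on the same strand.

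The parts upstream of these factors were given by lists of receptors, adaptors and ligands. Of 11 genes of the receptors and the JAK-STAT pathway, 10 were tested. None was called in either direction by edgeR, against 4.79% of all genes tested. None of the 10 had an unadjusted p under 0.05, against 10.7% higher and 7.26% lower of all genes. Their log2 fold changes ran from -0.24 to 0.24. STAT3 and TYK2, the most abundant, were at -0.14 and 0.04 (SEs 0.17 and 0.18). Of 17 sensor adaptors and kinases, 13 were tested and none was called by edgeR, with 2 at an unadjusted p under 0.05, TLR9 and TANK. MAVS and IRF3, the most abundant of these, were at 0.17 (SE 0.16) and -0.02 (SE 0.18). At the share of 4.79% over all genes, lists as short as these can hold no called gene. Of 21 interferon genes, 18 had 0 counts in every library and the other 3 at most 6 counts in a library, so interferon transcripts were at or near the limit of detection in both groups. The IFNA genes, IFNB1, IFNE and IFNW1 lie in the 9p21 region that K562 cells are known to lack, so their counts of 0 do not describe a response. Of 5 neighbours of the type I interferon cluster on 9p21, MTAP, CDKN2A and CDKN2B had 0 counts in every library. KLHL9, within the cluster, had at most 4 counts in a library. FOCAD, on the other side of the cluster, had 156 and 98 counts with the empty vector and 136 and 130 with RUNX1::ERG, and was not called.

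Many members of the OAS, MX and IFIT families were rare. Of the OAS family, which makes the second messenger that activates RNase L, OAS1, OAS2 and OASL had at most 8 counts in a library. OAS3 was tested, with 86 and 127 counts against 179 and 176 (log2 fold change 0.50, SE 0.34, edgeR adjusted p = 0.51). The dynamin-like GTPase MX1 had 6, 5, 2 and 8 counts, and MX2 had 14 and 12 counts with the empty vector and 4 and 8 with RUNX1::ERG (log2 fold change -1.34, SE 0.80, adjusted p = 0.43). IFI44, IFI44L and XAF1 had at most 3 counts in any library. In 5 of the 46 genes, OAS2, ZBP1, IFI44, IFI44L and XAF1, no library held more than 3 counts, so no fold change is given. IFIT1, IFIT2, IFIT3 and IFIT5, which bind viral RNA that lacks the marks of host RNA, had at most 39, 33, 127 and 16 counts in a library. All 4 had a fitted log2 fold change above 0 (49.8% of all genes tested did so), from 0.44 for IFIT3 to 1.25 for IFIT1. The groups overlapped in IFIT2 and IFIT5, and none of the 4 passed the threshold (edgeR adjusted p-values from 0.36 to 0.78). With both mates of a pair counted, the lowest of these values rest on very few fragments.

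BST2 (NCBI gene 684), which encodes tetherin and holds budding virus at the cell surface, was the second most abundant gene per kilobase. It was at 169.9 and 206 normalized CPM in the empty vector libraries and 140.2 and 141 in the RUNX1::ERG libraries, which were both lower. The log2 fold change of -0.42 (SE 0.16) had an unadjusted p = 0.024 and an edgeR adjusted p = 0.19. PARP9 and DTX3L encode an ADP-ribosylation complex, and PARP14 a related enzyme. PARP14 was at 26.5 and 22.7 normalized CPM with the empty vector and 20.8 and 22.2 with RUNX1::ERG. The log2 fold changes of PARP9, DTX3L and PARP14 were 0.26, 0.28 and -0.20 with SEs from 0.19 to 0.22, and none passed the threshold. Among the remaining effectors, SAMD9 and SAMD9L, which restrict poxviruses, were at 0.43 and 0.55 (adjusted p-values 0.48 and 0.83), IFI27 at 0.92 (0.42), EPSTI1 at 0.38 (0.88) and IFI35 at -0.08 (0.93). IFI27 passed the threshold without empty vector replicate 1 (1.86, adjusted p = 0.02) and was at 0.35 without empty vector replicate 2. Of the 14 effectors outside the named families, 4 were called higher, 0 lower and 7 not, and 3 were too low to test. Over all genes tested, 3.64% were called higher and 1.15% lower.

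Targets that interferon shares with other pathways were taken from lists written beside the set. CCL5, a chemokine gene that the interferon regulatory factors and NF-kappaB both drive, had the largest fold change of these lists. It had 57 and 71 counts with the empty vector and 1141 and 701 with RUNX1::ERG, or 0.946 and 1.01 against 13.5 and 9.75 normalized CPM. The log2 fold change was 3.57 (SE 0.30, edgeR adjusted p = 0.0001), and it passed the threshold under all 12 other settings. Of the 11 interferon-gamma and chemokine targets 4 were tested, and CCL5 was the 1 that was called. Of all genes tested, 3.64% were called higher and 1.15% lower. CXCL11 (46 and 87 counts against 154 and 195) and GBP2 (45 and 22 against 147 and 83) were at 1.18 and 1.46 on the log2 scale (adjusted p-values 0.14 and 0.15), and CXCL9, CXCL10 and IDO1 had at most 2 counts in a library. Of 10 NF-kappaB targets 9 were tested, with 1 called higher and 1 lower. NFKBIA, the inhibitor that NF-kappaB induces, rose by 0.94 on the log2 scale (SE 0.19, edgeR adjusted p = 0.022). ICAM1, an adhesion molecule, fell by 0.95 on that scale (SE 0.18, edgeR adjusted p = 0.015). Of 7 feedback inhibitors, SOCS3 fell by 0.91 on the log2 scale (SE 0.21, edgeR adjusted p = 0.031), while PTPN1 and PTPN2, the most abundant others, were at 0.24 and -0.08 (adjusted p-values 0.47 and 0.89). NFKB2 and TNFAIP3, the most abundant NF-kappaB targets not called, were at -0.55 and -0.37 (0.28 and 0.49). ICAM1 shares 23.6% of its exon bases with an antisense RNA. Without RUNX1::ERG replicate 1 the adjusted p of NFKBIA was 0.15, and without RUNX1::ERG replicate 2 those of SOCS3 and ICAM1 were 0.13 and 0.052.

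Markers of other cell types were looked at beside these results. Of 6 monocyte and macrophage markers 3 were tested, and CD14 and LYZ were called higher (log2 fold changes 3.24 and 1.12). CD163 had 0 counts. The others were rare and went both ways. CSF1R had 3 and 3 counts with the empty vector and 18 and 4 with RUNX1::ERG, and FCGR3A 42 and 10 against 8 and 3. ITGAM had 6 and 19 counts against 13 and 2 (log2 fold change -0.99, not called). The summed level of the 6 markers was 8.0 and 10.8 normalized CPM with the empty vector and 22.4 and 20.8 with RUNX1::ERG. Most of it was LYZ, at 6.97 and 9.90 against 18.1 and 18.7. Of 5 plasmacytoid dendritic cell markers, 1 was tested (TCF4, not called) and the others had at most 8 counts, and of 6 lymphocyte markers 3 were tested and none was called. Of 6 fibroblast and epithelium markers, all were tested and COL1A1 was called higher, at 3.88 ± 0.366 against 20.8 ± 1.75 normalized CPM (SD, n = 2 each, log2 fold change 2.42, edgeR adjusted p = 0.0002). Of all genes tested, 3.64% were called higher. The part of these markers in the results above was not tested.

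**Figure D3:**
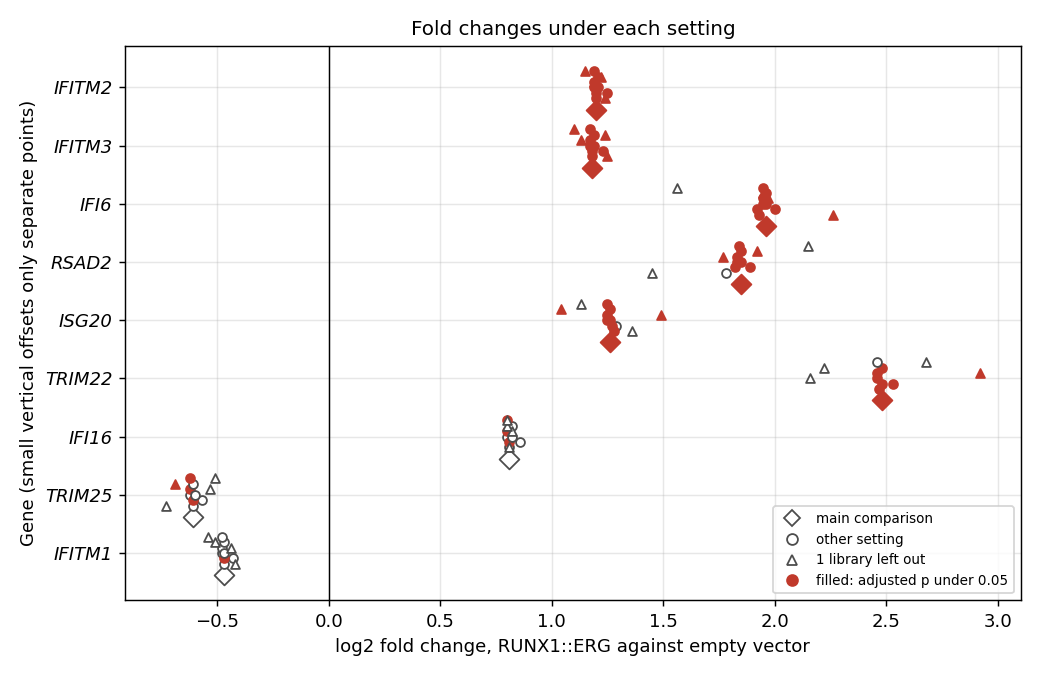
Log2 fold changes of RUNX1::ERG against empty vector (horizontal axis) for 9 genes in the main comparison (diamonds), under 8 other settings (circles) and with each library left out (triangles), filled where the adjusted p was under 0.05. IFITM2 and IFITM3 are filled throughout and stay between 1.10 and 1.25, while RSAD2, ISG20 and TRIM22 lose the call in several settings.

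The calls differed in how firmly they held. IFITM2 and IFITM3 were called under all 12 other settings, with log2 fold changes from 1.15 to 1.25 and from 1.10 to 1.25. IFI6 was called under 11, RSAD2 and ISG20 under 9 each, and TRIM22 under 7 of the 11 that tested it. Leaving out RUNX1::ERG replicate 1, which had the higher ERG count, left 2 genes called, IFITM2 and IFITM3. In the direction of lower expression, 6 of the 37 tested genes were below in both RUNX1::ERG libraries (16.2%, against 22.1% of all genes). These were IFITM1, TRIM25, STING1, BST2, MX2 and PARP14. With all libraries kept, TRIM25 was called lower with the DESeq2 Wald test and without a filter on low counts. With a block for replicate number, both TRIM25 and IFITM1 were called lower.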

How the data were processed

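WTS libraries of poly(A)-enriched RNA from K562 cells were analysed, 2 with the empty vector and 2 with RUNX1::ERG. The authors deposited raw read counts per NCBI gene number, 1 file for each library. The methods give hg19 as the reference, and the submitters' processing notes name HISAT2 2.2.1 and featureCounts 2.0.1. The annotation and strand setting are not given in the sources used here. Gene numbers were joined to the symbols of a RefSeq table (GRCh38.p14), which matched 92.2% of 25702 genes. Gene positions and exon lengths were from GENCODE v44 on GRCh37 (hg19), and promoter sequences from RefSeq on GRCh38.p14.

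Counts were analysed in R 4.3.3 with edgeR 4.0.16, using its filter on low counts (15394 genes kept), TMM scaling, the quasi-likelihood test without a replicate block, and Benjamini-Hochberg adjustment over all genes tested, with 0.05 as the threshold. Standard errors (SE) were derived from the F statistic, as the log2 fold change over its root. The procedure was tested on simulated data. P-values rest on the spread between 2 replicates per group, which the study calls biological, moderated across all genes tested. DESeq2 1.42.0 and limma 3.58.1 were alternatives.

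The 46 genes and the other lists were chosen with earlier results of these data known. By rule, values were given for genes past an adjusted or unadjusted p of 0.05, the 8 most abundant, the sensors and transcription factors, genes at the floor, and called genes of the pathway lists with the most abundant of those not called. Other genes were named after their values were seen, and 1 gene of the pathway lists is not reported here by name.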

Additional observations from a re-analysis of the deposited data

How the results depend on the processing

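The number of genes called among all tested was 737 in the main comparison, 1500 without a filter on low counts, 1204 with the DESeq2 Wald test and 1733 with the replicate block, and ran from 286 (without RUNX1::ERG replicate 1) to 1336 with each library left out. With 1 library left out, its group is assumed to vary like the other. Of the 46 genes, 6 were called higher, and this number ran from 2 to 8 with a library left out. None was called lower in the main comparison, 1 was with DESeq2 and 1 when no filter was used (TRIM25 in each), 2 were with the replicate block (TRIM25 and IFITM1), and 0 to 1 with a library left out. The median log2 fold change of the tested members was 0.44, and was 0.47 with scaling by library totals, 0.38 when every library had to hold 10 counts and 0.37 to 0.48 with a library left out. Of the pathway lists, 5 of the 58 genes tested were called (3 higher and 2 lower), against 4.79% of all genes tested. The number called was 9 without a filter and 9 with the replicate block. The cause was not tested.

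The replicate block changed no direction. Under it IFI16 and HERC6 were added to the 6 genes called higher. Differences between replicates 1 and 2 correlated between the groups (r = 0.35 over 15394 genes, which are not independent), but no source links equal numbers to 1 batch or day, and no pairing was assumed.

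Sign changes were few and lay in genes that were not called. EPSTI1 was at -0.10 with limma voom. With a library left out, EPSTI1 ran from -1.65 to 1.15, IFI35 from -0.35 to 0.25, IFIT5 from -0.20 to 6.40, IRF7 from -0.20 to 0.76, IRF9 from -0.06 to 0.55 and SAMD9L from -0.23 to 2.10. Counting error limits the rarest of these, and the fitted values of genes with 0 counts in the remaining library depend on the prior count. Of the other values for single genes, 309 kept their direction and side of the threshold in settings with all libraries, 15 became stronger and 4 weaker.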

Other observations

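The RUNX1::ERG libraries differed in the level of the fusion's parts. ERG was at 954 normalized CPM in replicate 1 and 379 in replicate 2, and RUNX1 at 786 and 400.2. The ratio of replicate 1 to replicate 2 for the 6 genes called higher was 1.63 for IFI6, 1.39 for TRIM22, 1.18 for ISG20, 1.12 for IFITM3, 1.08 for IFITM2 and 0.624 for RSAD2. Of the 37 tested genes, 22 were higher in RUNX1::ERG replicate 1 than in replicate 2, against 50.4% of all genes tested, and 23 were higher in empty vector replicate 1 than in its replicate 2, against 52.3%. Levels of the fusion and of these genes cannot be related across 2 libraries.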
